A study of Homo sapiens with 12 samples.

Results

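The genes described here are 49 translation initiation, elongation and termination factors of the cytosol, taken from the deposited count table by gene symbol. The rule asked only whether a symbol was on the list, but the list was written with earlier results of these data known. Shares set against all genes below therefore describe a chosen list. All 49 were found among the 57353 rows of the table, and all 49 were among the 14955 genes left by a filter on low counts. They cover start codon scanning (EIF1, EIF1AX, EIF1B, EIF5), the 3 subunits of eIF2, the separate initiator tRNA binder EIF2A, the 5 subunits of eIF2B and the 13 subunits of eIF3. The others are 9 genes of eIF4F and its partners, 2 poly(A)-binding proteins, 2 factors of 60S subunit joining, 7 elongation genes and 3 genes of termination and recycling.

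RNA was sequenced from HepG2, an epithelial-like human liver cancer line labelled wild type, after 12 h with 10 µM sorafenib, a multikinase inhibitor, or with the vehicle DMSO. Cycloheximide, which holds ribosomes on mRNA, was given to all cultures before lysis, and lysates were separated on sucrose gradients into a light pool (the low-molecular peak, free subunits and single 80S ribosomes) and a polysome pool. Each treatment has 3 numbered replicates, called cultures here although the labels do not say that they were grown separately. Each gave 1 library per pool, so 12 libraries fall into 4 groups of 3: vehicle light, vehicle polysome, sorafenib light and sorafenib polysome. All cells are of 1 line and 1 dose and time, and none of the 12 libraries holds total RNA of the unseparated lysate. Altered mRNA abundance and altered ribosome loading therefore cannot be told apart on polysomes.

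Initiation begins when eIF2, loaded with GTP and the initiator tRNA, binds the 40S subunit together with eIF1, eIF1A, eIF3 and eIF5. eIF4F joins this complex to the capped end of an mRNA, the complex scans to a start codon, and eIF5B then brings in the 60S subunit; eIF2B recharges eIF2 with GTP, and phosphorylation of eIF2 in stressed cells blocks that step. Many elongation factors, poly(A)-binding proteins and eIF3 subunits are encoded by TOP mRNAs, which start with a C followed by a run of pyrimidines (C or T) and whose loading on ribosomes follows growth signalling through mTOR and LARP1.

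The letters around the annotated transcription start are shown for 8 members with such a run exactly at the start, because nearly all members with such a run were low on polysomes in vehicle cells, and for 4 members without it. The sequences are RefSeq's, of assembly GRCh38.p14, and each window runs from 10 bases before the start to the 20 bases from the start on, on the gene's own strand. Capitals mark the C at the start and the C or T letters that follow it without a break.
EEF1A1, chr6:73521013-73521042, minus strand: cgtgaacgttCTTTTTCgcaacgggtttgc
EEF2, chr19:3985444-3985473, minus strand: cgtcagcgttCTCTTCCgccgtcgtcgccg
TPT1, chr13:45341164-45341193, minus strand: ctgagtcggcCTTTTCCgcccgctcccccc
EIF2A, chr3:150546777-150546806, plus strand: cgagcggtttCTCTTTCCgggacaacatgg
EIF2S3, chrX:24054946-24054975, plus strand: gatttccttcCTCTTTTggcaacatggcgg
EIF3F, chr11:7987327-7987356, plus strand: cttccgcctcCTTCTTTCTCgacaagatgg
EIF3K, chr19:38619178-38619207, plus strand: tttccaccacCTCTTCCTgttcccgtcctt
EIF4B, chr12:53006446-53006475, plus strand: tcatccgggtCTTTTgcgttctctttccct
EEF1G, chr11:62573872-62573901, minus strand: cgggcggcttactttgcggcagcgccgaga
EIF4A1, chr17:7572815-7572844, plus strand: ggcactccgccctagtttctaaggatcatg
EIF1, chr17:41688875-41688904, plus strand: ccgcccctctgccccagtcactgagccgcc
EIF2B1, chr12:123633667-123633696, minus strand: gtacggaagtgcgccggaagtggggtgcgg

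A tract was defined as a C followed by at least 4 letters that are C or T, read on the sense strand only. Of the 49 members, 40 had at least 1 entry in the promoter table, and EIF2S2, EIF3A, EIF3E, EIF3G, EIF3H, EIF3L, EEF1D, PABPC1 and PABPC4 had none. A gene had the tract if any of its entries did. With the tract allowed to begin within 5 bases of the start, 19 of 40 members had it (47.5%, 95% Wilson interval 32.9 to 62.5). So did 29.4% of tested genes and 25.2% of all genes with an entry. With the tract exactly at the start, a rule chosen after the letters were seen, 12 of 40 members had it (30%, interval 18.1 to 45.4). There the shares were 7.35% of tested genes and 5.14% of all genes with an entry. The intervals treat members as random draws, which a chosen list is not, so they are no test. These 12 were the 8 with capitals above and EEF1B2, EIF3D, EIF3M and EIF4A2. A match describes the annotated start and does not show where transcription began in these cells.

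Total counts per library ranged from 4769383 to 13336689 in the vehicle and sorafenib polysome groups and the vehicle light group together, and from 511065 to 4989312 in the sorafenib light group. Log2 expression correlated at 0.95 to 0.99 between replicates of the other 3 groups and at 0.8 to 0.93 between the sorafenib light libraries. Sorafenib light library 3 correlated at 0.92 to 0.93 with the sorafenib polysome libraries, library 1 at 0.87 to 0.88 and library 2, the shallowest, at 0.77. Vehicle light libraries 1, 2 and 3 correlated at 0.86 to 0.9, 0.88 to 0.92 and 0.88 to 0.9 with the vehicle polysome libraries. Sorafenib polysome library 3 and vehicle light library 1 both carry the tag S1 in their descriptions, and the labels do not say what it stands for. The 8 hepatocyte markers (among them ALB, AFP and APOA1) had at least 10 counts in all 12 libraries, whereas of 8 markers of other cell types PTPRC, PECAM1, VWF, COL1A1 and COL3A1 reached 10 counts in none, ACTA2 in 11 and CD68 and EPCAM in 12. Those 8 summed to 91.1 to 115 CPM (read counts scaled to a common library size) in vehicle light, 239 to 356 in vehicle polysome, 259 to 291 in sorafenib light and 427 to 444 in sorafenib polysome libraries. The summed level of the hepatocyte markers moved with treatment, from 4630 to 14800 CPM in vehicle libraries to 27400 to 37400 in sorafenib libraries, and the part of either list in the results below was not tested. Levels below are CPM after TMM scaling, which sets each library relative to the others on genes taken as unchanged, so every change is relative to other genes and levels are compared only within a gene.

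Together the 49 members took up 5.57, 5.85 and 6.15% of the counts of the vehicle light libraries and 2.3, 1.95 and 1.94% of those on vehicle polysomes. With sorafenib the light libraries held 3.57, 3.21 and 4.33% and the polysome libraries 3.69, 3.5 and 3.03%. The pools lay far apart in vehicle cells and overlapped with sorafenib. The overlap holds for shares of all counts: without mitochondrial and ribosomal protein genes in the total, the sorafenib light libraries held 4.52 to 6.44% and the sorafenib polysome libraries 3.3 to 4.1%, against 10.4 to 11.4% and 2.2 to 2.68% in vehicle cells, so a smaller gap remained. Elongation genes made up most of it: 4.78 ± 0.261% (SD, n = 3) of vehicle light counts, 1.12 ± 0.153% on vehicle polysomes, 2.79 ± 0.512% of sorafenib light counts and 2.21 ± 0.349% on sorafenib polysomes. EEF1A1 alone, the carrier of aminoacyl-tRNA to the ribosome, held 2.82 ± 0.377, 0.655 ± 0.135, 1.77 ± 0.301 and 1.52 ± 0.266% in the same order.

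A list of 16 members that are widely described as TOP mRNAs (EEF1A1, EEF1B2, EEF1D, EEF1G, EEF2, TPT1, EIF3A, EIF3E, EIF3F, EIF3G, EIF3H, EIF3K, EIF3L, EIF3M, EIF4B and PABPC1) was kept apart from the other 33. The TOP members held 5.22 to 5.74% of vehicle light counts and 1.14 to 1.49% on vehicle polysomes, and 2.61 to 3.71 and 2.1 to 2.8% with sorafenib. The other 33 ran the opposite way between the pools, at 0.35 to 0.436% of vehicle light counts and 0.79 to 0.816% on vehicle polysomes, then 0.552 to 0.621 and 0.848 to 0.927% with sorafenib. For these 33 the sorafenib libraries lay above the vehicle libraries in both pools, without overlap. Without mitochondrial and ribosomal protein genes in the total, the TOP members held 3.67 to 5.52% of sorafenib light and 2.29 to 3.11% of sorafenib polysome counts, which do not overlap, and the other 33 held 0.905 to 0.95% on vehicle and 0.945 to 1.01% on sorafenib polysomes, which do.

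**Figure D1:**
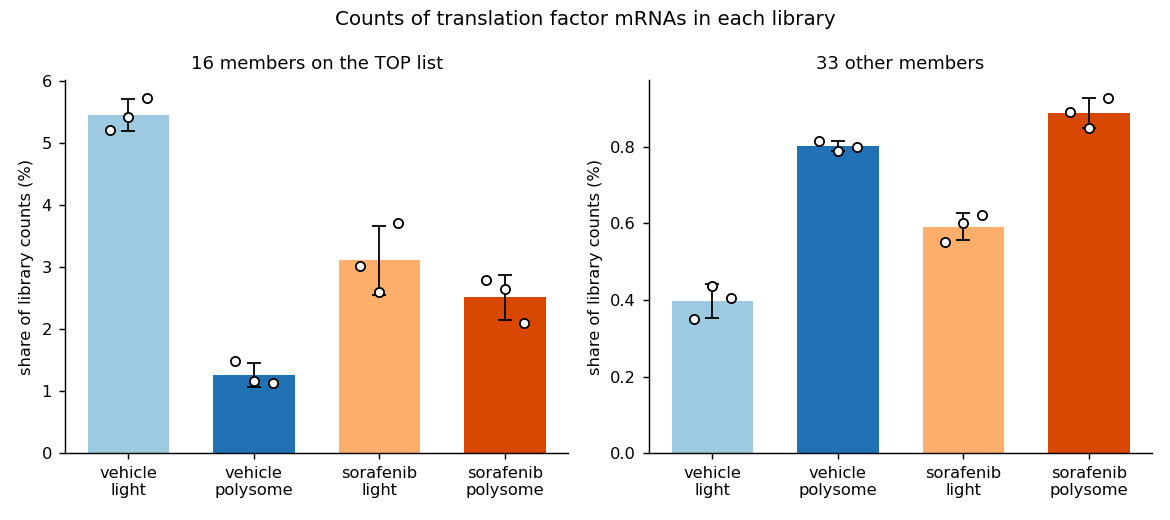
Share of each library's counts (%, vertical axis) held by the 16 members on the TOP list (left) and by the 33 other members (right) in the 4 groups on the horizontal axis; bars are means of 3 libraries, error bars are SD and circles are the libraries, and the 2 panels have different scales. The TOP members lie between 5.22 and 5.74% in the vehicle light libraries and between 1.14 and 1.49% on vehicle polysomes, while the sorafenib groups overlap each other when shares are taken of all counts, as drawn here.

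On polysomes, 19 of the 49 members rose with sorafenib (38.8%), where 20.9% of all tested genes rose, and 5 fell (10.2%), where 28.8% of all tested genes fell. The median log2 fold change of the members was 0.40, against -0.26 for all genes tested. In the light fraction 8 members rose (16.3%; 11.7% of all genes) and 15 fell (30.6%; 17.7% of all genes), with a median of -0.19 against -0.12. The 2 comparisons moved in opposite directions for 9 members: EEF1A1, EEF1G, EEF2, EIF3A, EIF3L and EIF4B rose on polysomes and fell in the light fraction, and EIF1, EIF1AX and EIF2B1 did the reverse. EIF2B3 and EIF3C rose in both, and none fell in both. The share of all genes with such pairs of calls was not worked out, so these counts have no background. Calls are from edgeR's quasi-likelihood test over all 12 libraries with Benjamini-Hochberg adjustment over all 14955 genes, at an adjusted p under 0.05.

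The fits with single libraries or cultures left out gave 13 to 26 members that rose and 1 to 4 that fell on polysomes, and 4 to 12 that rose and 10 to 16 that fell in the light fraction. Without the 2 shallow sorafenib light libraries (1 and 2) the light fraction gave 9 that rose and 5 that fell; that fit leaves 1 sorafenib light library, number 3, which is assumed to vary like the libraries of the other groups. Without sorafenib light library 3, the one most like the polysome libraries, it gave 5 and 16. Scaling to library totals alone, which moved the median of all genes in the light fraction from -0.12 to 0.31, gave 17 that rose and 11 that fell there. On polysomes library totals gave 21 and 5 (median of all genes -0.11), and TMM within each fraction 22 and 2. The shares of all genes called belong to the main fit throughout. Counts of members from other fits, here and below, are not to be read against them.

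**Figure D2:**
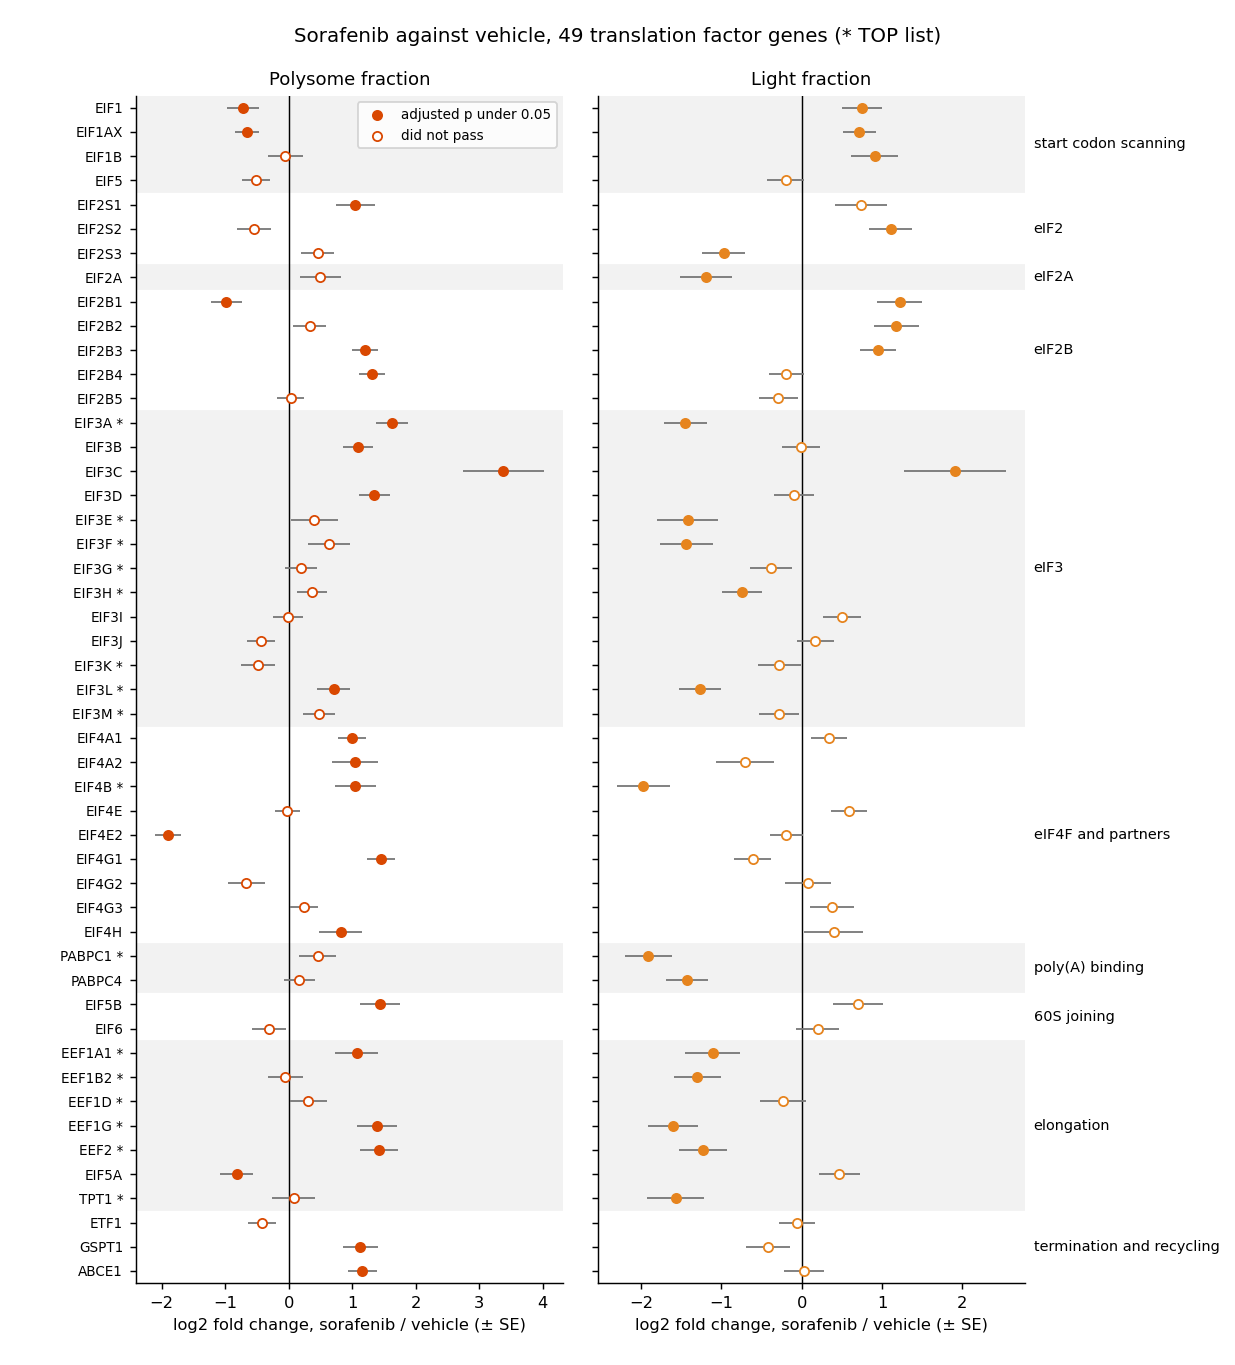
Log2 fold change of sorafenib over vehicle (horizontal axis, ± SE) for the 49 members, grouped by factor complex, on polysomes (left) and in the light fraction (right); filled points passed at an adjusted p under 0.05, open points did not, and a star marks the TOP list. On polysomes 19 members rose and 5 fell, and of the 16 starred genes 12 fell in the light fraction and 0 rose. Of all genes 20.9% rose and 28.8% fell on polysomes, and 11.7% rose and 17.7% fell in the light fraction.

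Among the factors of start codon scanning, the genes for both small factors that hold the 40S subunit open while it scans moved in opposite directions in the pools. EIF1, which keeps initiation off wrong start codons, stood at 779, 931 and 877 CPM in the vehicle light libraries and at 1090, 1010 and 762 CPM on vehicle polysomes. With sorafenib it stood at 1530, 1230 and 1580 CPM in the light libraries and 640, 475 and 618 CPM on polysomes. Each sorafenib library lay outside the range of the vehicle libraries of its own pool. EIF1 fell on polysomes by 0.72 ± 0.25 (SE, log2, edgeR adjusted p = 0.0246) and rose in the light fraction (0.75 ± 0.25, adjusted p = 0.0332). Both calls were narrow: the first was lost, at -0.82 to -0.35, in each fit that left out a library or culture except that without vehicle polysome library 3, and the other was lost in all such fits but those without sorafenib light library 2 or sorafenib culture 2 (range of all these fits 0.60 to 0.97). EIF1AX, which encodes eIF1A, went from 144, 150 and 149 CPM on vehicle polysomes to 83.8, 103 and 93.5 CPM (-0.66 ± 0.19, adjusted p = 0.0083). In the light fraction it went from 46.8, 56.5 and 53.1 CPM to 89.2, 89.8 and 80.3 CPM (0.72 ± 0.20, adjusted p = 0.0121). The polysome call of EIF1AX was lost without any 1 of the 6 light libraries (-0.42 to -0.38) or without sorafenib polysome library 1 (-0.61), and its light call without vehicle light library 1 (0.68); leaving out whole cultures cost the first call at -0.59 to -0.40 and the second at 0.68 to 0.73. EIF1B, a close relative of EIF1, rose in the light fraction only, from 36.4, 46.3 and 26.1 CPM to 69.3, 41.1 and 85.7 CPM (0.91 ± 0.29, adjusted p = 0.0229), with overlapping libraries. Its call was lost without vehicle light library 1 or 3 (0.95 and 0.76) or sorafenib light library 1 or 3 (0.99 and 0.64). It was also lost without vehicle culture 1 or 3 (0.95 and 0.77) or sorafenib culture 1 or 3 (0.87 and 0.59). EIF5, which triggers GTP hydrolysis on eIF2 at the start codon, passed in neither pool (-0.52 on polysomes, -0.20 in the light fraction). The sorafenib effect differed between the pools for EIF1 (-1.47) and EIF1AX (-1.38) by the interaction test. The interaction of EIF1 was lost without vehicle light library 1 (-1.17) or 3 (-1.23) or vehicle culture 1 (-1.06) or 2 (-1.43). Rows named as EIF1AX pseudogenes held 11.7% as many counts as EIF1AX, so its reads may be shared between rows.

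The 3 subunits of eIF2 did not move together. EIF2S1, the alpha subunit that stress kinases phosphorylate, went from 47.4, 30.1 and 40.2 CPM on vehicle polysomes to 81.7, 69.3 and 93.7 CPM with sorafenib. It rose there by 1.05 ± 0.31 (adjusted p = 0.00831), a call lost without vehicle polysome library 2 (0.89) or vehicle culture 2 (0.89). Its light libraries overlapped (27.8, 38.4 and 37.6 against 69.3, 16.8 and 74.3 CPM). EIF2S2, the beta subunit, showed the other pattern: 293, 400 and 429 CPM in vehicle light libraries against 895, 976 and 561 CPM with sorafenib, and 910, 1090 and 768 against 605, 607 and 693 CPM on polysomes. It rose in the light fraction (1.11 ± 0.27, adjusted p = 0.005) and did not pass on polysomes (-0.54 ± 0.27, adjusted p = 0.0995), although those libraries did not overlap. EIF2S3, the gamma subunit that holds GTP and the tRNA, fell in the light fraction (-0.97) and was at 0.46 on polysomes without passing. Rows named as EIF2S2 pseudogenes held 12.1% as many counts as EIF2S2, so its reads may be shared between rows.

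EIF2A, an initiator tRNA binder outside the eIF2 complex, was high in 1 group only. It stood at 186, 199 and 158 CPM in vehicle light libraries and at 35, 18.4 and 24.6 CPM on vehicle polysomes. With sorafenib it stood at 65.2, 31.8 and 127 CPM in the light fraction and 37.1, 36.9 and 37.3 CPM on polysomes. The vehicle light libraries lay above all other libraries, and the sorafenib light libraries were spread widely. EIF2A fell in the light fraction (-1.19 ± 0.32, adjusted p = 0.01) and did not pass on polysomes (0.50 ± 0.32, adjusted p = 0.194). The light call was lost without vehicle light library 1 (-1.11) or 2 (-1.03) or sorafenib light library 1 (-0.96) or 2 (-0.77). It was also lost without sorafenib culture 1 (-1.09) or 2 (-0.78), and the value grew to -1.83 without sorafenib light library 3. Its interaction (1.69 ± 0.45, adjusted p = 0.0109) was 2.60 without that library and was lost without vehicle culture 2 (1.47) or sorafenib culture 1 (1.60).

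eIF2B, the exchange factor that reloads eIF2, is built of an alpha, beta, gamma, delta and epsilon subunit, and its 5 genes split in direction. EIF2B4 (delta) went from 46.5, 34.6 and 33.3 CPM on vehicle polysomes to 87, 99.8 and 96.4 CPM (1.31 ± 0.20, adjusted p = 5.17e-05), and stayed within overlapping ranges in the light fraction (60.6, 54.6 and 52.3 against 52.8, 50.5 and 44.4 CPM). EIF2B3 (gamma) rose in both pools, from 22.1, 24.3 and 20.7 to 51.5, 51 and 51.2 CPM on polysomes (1.20 ± 0.20, adjusted p = 9.74e-05) and from 22.9, 18.2 and 22.6 to 44, 44.9 and 36.2 CPM in the light fraction (0.95 ± 0.22, adjusted p = 0.00316). EIF2B1 (alpha) was the only subunit gene that fell on polysomes, from 62.6, 85.4 and 88.6 CPM to 43.4, 42.2 and 34.7 CPM. That was a fall of 0.98 ± 0.25 (adjusted p = 0.00359), lost without vehicle culture 3 (-0.64), while in the light fraction EIF2B1 rose from 23.7, 22.7 and 21.2 CPM to 58.1, 76.7 and 32.2 CPM (1.22 ± 0.28, adjusted p = 0.0031). EIF2B2 (beta) rose in the light fraction (1.18), and the catalytic subunit gene EIF2B5 (epsilon) passed in neither pool (0.03 and -0.29). The difference between pools in the sorafenib effect passed for EIF2B1 (-2.19 ± 0.37, adjusted p = 0.000414) and for EIF2B4 (1.50 ± 0.30, adjusted p = 0.00132), in opposite directions.

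eIF3, the largest initiation factor and a platform on the 40S subunit, had 5 of 13 subunit genes rise on polysomes (EIF3A, EIF3B, EIF3C, EIF3D, EIF3L) and 0 fall, with a median of 0.48 (38.5% rose; of all genes 20.9% rose and 28.8% fell). In the light fraction EIF3A, EIF3E, EIF3F, EIF3H and EIF3L fell and EIF3C rose (38.5 and 7.69%, against 17.7 and 11.7% of all genes). EIF3A, the largest subunit and scaffold, stood at 118, 81.9 and 94.2 CPM on vehicle polysomes and at 334, 266 and 310 CPM with sorafenib. In the light fraction it stood at 77.5, 139 and 143 CPM in vehicle cells and 38.2, 43 and 49.5 CPM with sorafenib. The pools were close to each other in vehicle cells and far apart with sorafenib, with no overlap between treatments in either pool. EIF3A rose on polysomes (1.63 ± 0.25, adjusted p = 4.92e-05) and fell in the light fraction (-1.45 ± 0.27, adjusted p = 0.000681), and the difference of these effects was the largest of the 49 (3.07 ± 0.37, adjusted p = 3.79e-05). EIF3B (1.09), another scaffold subunit, and EIF3D (1.35), which can bind the cap of some mRNAs, rose on polysomes and were at -0.01 and -0.10 in the light fraction without passing.

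EIF3C had the largest fold change on polysomes and is the least certain member. A near-identical copy, EIF3CL, lies in the same table, and both rows were low. Summed over both rows, the raw counts were 27, 30 and 16 in vehicle light, 15, 19 and 17 in vehicle polysome, 4, 2 and 90 in sorafenib light and 248, 116 and 143 in sorafenib polysome libraries. The polysome rise (3.38 ± 0.64, adjusted p = 0.000287; 0.462, 1.59 and 0.93 against 16.8, 4.53 and 7.27 CPM) thus rests on few reads in vehicle cells. The light-fraction rise (1.91 ± 0.63, adjusted p = 0.028) came from sorafenib light library 3, at 3.02, 2.44 and 2.7 against 2.35, 1.87 and 19.2 CPM. Without that library the value was -0.30. The call was also lost without vehicle light library 2 (1.93) or vehicle culture 2 (1.79).

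Of the other eIF3 subunits, EIF3E, EIF3F, EIF3H and EIF3L, all on the TOP list, fell in the light fraction by 1.42, 1.44, 0.74 and 1.27, and of these EIF3L also rose on polysomes (0.71). EIF3G, EIF3K and EIF3M, also on the list, were at -0.38, -0.28 and -0.28 in the light fraction and passed in neither pool. EIF3I and the loosely bound EIF3J, which are not on the list, also passed in neither pool. Rows named as EIF3F pseudogenes held 12.4% as many counts as EIF3F.

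Of the 9 genes of eIF4F and its partners, 5 rose on polysomes (EIF4A1, EIF4A2, EIF4B, EIF4G1, EIF4H) and EIF4E2 fell. These were 55.6 and 11.1%, against 20.9 and 28.8% of all genes. EIF4G1, the scaffold that bridges the cap-binding protein and eIF3, went from 99.6, 141 and 111 CPM on vehicle polysomes to 371, 286 and 306 CPM (1.46 ± 0.22, adjusted p = 4.32e-05). In the light fraction it went from 96.9, 113 and 121 CPM to 62.2, 78.6 and 76.6 CPM, a non-overlapping difference that did not pass (-0.61 ± 0.23, adjusted p = 0.0515). Its vehicle pools overlapped, and its sorafenib polysome libraries lay above all others.

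EIF4B, a cofactor of the helicase, was instead highest in the vehicle light libraries. It stood at 1170, 1240 and 1170 CPM in vehicle light libraries and 291, 224 and 244 CPM on vehicle polysomes. With sorafenib it stood at 229, 166 and 507 CPM in the light fraction and 648, 444 and 482 CPM on polysomes. It fell in the light fraction by 1.97 ± 0.33 (adjusted p = 0.000351) and rose on polysomes by 1.05 ± 0.32 (adjusted p = 0.0116). The second call was lost without vehicle polysome library 2 (0.97), sorafenib polysome library 1 (0.86), vehicle culture 2 (0.97) or sorafenib culture 1 (0.87). EIF4E2, a cap-binding relative of EIF4E known as a repressor of translation, had the largest fall on polysomes. It went from 175, 232 and 194 CPM to 53.7, 57.1 and 50.1 CPM there (-1.90 ± 0.20, adjusted p = 1.61e-06) and from 84.8, 100 and 90.1 CPM to 81.6, 84.2 and 76.6 CPM in the light fraction (-0.19 ± 0.21, adjusted p = 0.515), without overlap in either pool. The cap-binding protein gene EIF4E itself passed in neither pool (-0.02 and 0.59; 15.5% as many counts lay in its pseudogene rows). The helicase genes EIF4A1 (1.00) and EIF4A2 (1.04) and the cofactor EIF4H (0.82) rose on polysomes, EIF4H with an adjusted p of 0.0497. The scaffold relatives EIF4G2, which lacks the site for the cap-binding protein (-0.67, adjusted p = 0.059), and EIF4G3 (0.24) did not pass.

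Both poly(A)-binding genes fell in the light fraction, where 17.7% of all genes fell, and passed nowhere on polysomes. PABPC1, the main cytoplasmic protein of poly(A) tails, stood at 4400, 4920 and 4400 CPM in vehicle light and at 999, 1240 and 1420 CPM in sorafenib light libraries (-1.91 ± 0.29, adjusted p = 0.000173). On polysomes it stood at 546, 341 and 291 CPM against 569, 601 and 453 CPM with overlap (0.46 ± 0.29, adjusted p = 0.186). PABPC4 fell in the light fraction by 1.43. For both genes the sorafenib light level was still above the vehicle polysome level in every library.

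**Figure D3:**
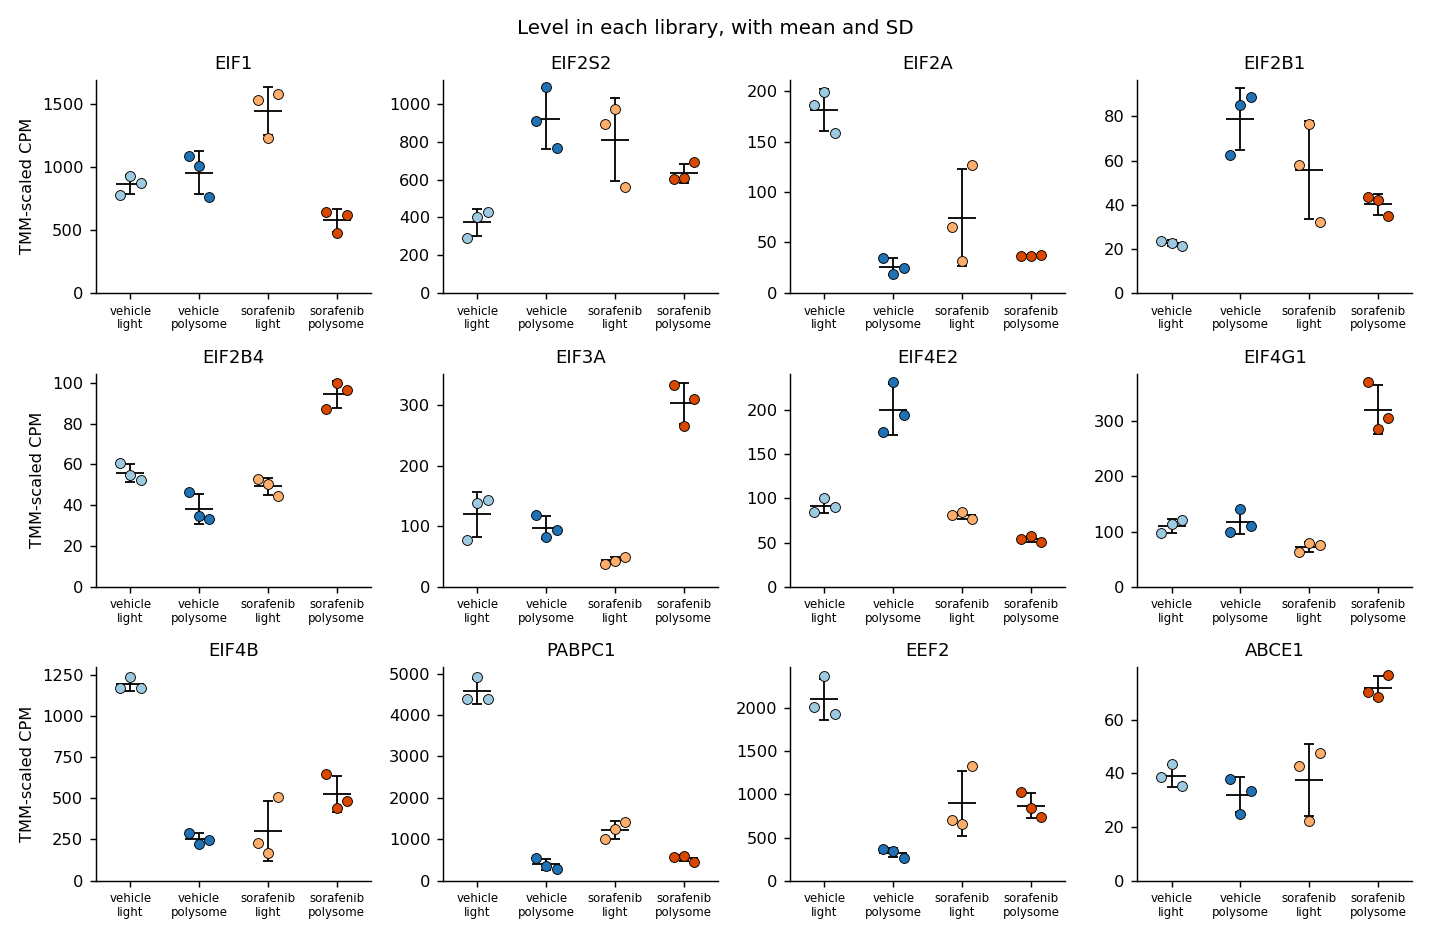
TMM-scaled CPM (vertical axes, linear, from 0) of 12 members in the 12 libraries, by group on the horizontal axes; points are libraries, dashes are means and error bars are SD of 3. EIF4B, PABPC1, EEF2 and EIF2A are highest in the vehicle light libraries, whereas EIF3A, EIF4G1, EIF2B4 and ABCE1 are highest in the sorafenib polysome libraries and EIF4E2 in the vehicle polysome libraries.

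At subunit joining, EIF5B, the GTPase that brings in the 60S subunit, stood at 222, 245 and 108 CPM on vehicle polysomes and 460, 654 and 450 CPM with sorafenib. It rose there by 1.44 ± 0.31 (adjusted p = 0.000888), and in the light fraction (122, 197 and 222 against 281, 359 and 247 CPM) it did not pass (0.70 ± 0.31, adjusted p = 0.0935). EIF6, which keeps free 60S subunits from joining too early, was at -0.31 and 0.20 and passed in neither pool.

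Among the 7 elongation genes, EEF1A1, EEF1G and EEF2 rose on polysomes and EIF5A fell, while 5 fell in the light fraction (EEF1A1, EEF1B2, EEF1G, EEF2, TPT1). On polysomes 42.9% rose and 14.3% fell, against 20.9 and 28.8% of all genes. The 5 that fell in the light fraction were 71.4%, against 17.7% of all genes. EEF2, the translocase, stood at 2010, 2370 and 1930 CPM in vehicle light libraries and 364, 344 and 261 CPM on vehicle polysomes. With sorafenib it stood at 702, 660 and 1330 CPM in the light fraction and 1030, 841 and 743 CPM on polysomes. The pools were far apart in vehicle cells and overlapped with sorafenib. EEF2 rose on polysomes by 1.43 ± 0.30 (adjusted p = 0.00068) and fell in the light fraction by 1.23 ± 0.30 (adjusted p = 0.00455; 0.98 without sorafenib light library 1, where the call was lost).

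EEF1G, a subunit of the complex that recharges eEF1A, stood at 6670, 5560 and 5670 CPM in vehicle light libraries and 633, 576 and 495 CPM on vehicle polysomes. With sorafenib it stood at 1820, 1290 and 2780 CPM in the light fraction and 1690, 1540 and 1220 CPM on polysomes. Again the sorafenib pools overlapped and the vehicle pools did not. EEF1G rose on polysomes by 1.39 ± 0.31 (adjusted p = 0.00109) and fell in the light fraction by 1.60 ± 0.31 (adjusted p = 0.000865). Its partner subunits EEF1B2 and EEF1D did not pass on polysomes (-0.05 and 0.31), and only EEF1B2 fell in the light fraction (-1.30). EEF1A1 rose on polysomes (1.07) and fell in the light fraction (-1.11). TPT1, an abundant TOP mRNA grouped here with its binding partners among the elongation factors, fell in the light fraction (-1.57) and was at 0.08 on polysomes. EIF5A, which helps ribosomes past difficult stretches of peptide, went the other way, at -0.82 on polysomes (adjusted p = 0.0122) and 0.47 in the light fraction without passing.

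In termination and recycling, GSPT1 and ABCE1 rose on polysomes (66.7%, against 20.9% of all genes) and none of the 3 genes passed in the light fraction. ABCE1, which splits ribosomes after termination, stood at 37.8, 25 and 33.3 CPM on vehicle polysomes and 70.5, 68.7 and 76.9 CPM with sorafenib (1.16 ± 0.23, adjusted p = 0.000508). Its light libraries overlapped, at 38.5, 43.5 and 35.5 CPM in vehicle and 42.9, 22.4 and 47.6 CPM in sorafenib cells. GSPT1, the GTPase eRF3a, went from 121, 86.5 and 96.6 CPM to 225, 229 and 212 CPM on polysomes (1.13 ± 0.28, adjusted p = 0.00242). It stood at 316, 368 and 321 CPM in vehicle light and 260, 133 and 348 CPM in sorafenib light libraries. ETF1, the stop codon reader eRF1, passed in neither pool (-0.42 and -0.06).

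Within vehicle cells, the members differed widely in how they were split between the pools. Relative to the light fraction, 10 of 49 were higher on polysomes (20.4%; 18.3% of all genes) and 22 lower (44.9%; 17.8% of all genes), with a median of -0.29 against -0.06. The zero of this comparison depends on the scaling, since polysome and light libraries differ in make-up: with library totals alone 25 were higher and 14 lower, and the median of all genes moved to 0.82. With TMM within each fraction 22 were higher and 16 lower. The members' median lay 0.23 below that of all genes with TMM and 0.22 below it with library totals. A change of scaling shifts all genes nearly alike, so this gap could hardly have changed and is no check of it. Of the members called in vehicle cells, EIF2B4 was the only gene whose direction changed with scaling (-0.55, but 0.34 with library totals and 0.10 with TMM within each fraction). The lowest ratios belonged to TPT1 (-4.06 ± 0.38), PABPC1 (-3.54 ± 0.31), EEF1G (-3.39 ± 0.33), EIF3E (-3.11 ± 0.40) and EIF3L (-3.02 ± 0.28). The highest belonged to EIF2B1 (1.81 ± 0.26), EIF5A (1.62 ± 0.26), EIF4G2 (1.53 ± 0.29), EIF1AX (1.50 ± 0.20) and EIF2S2 (1.31 ± 0.27).

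With sorafenib, 6 members were higher on polysomes than in the light fraction (12.2%; 13.4% of all genes) and 10 lower (20.4%; 12.4% of all genes), with a median of -0.18 against 0 for all genes. EIF3A (2.79), EIF4G1 (2.15), EIF3B (1.52), EIF4H (1.21), EIF2B4 (0.95) and ABCE1 (0.85) were higher. TPT1 (-2.41), EIF3H (-1.63) and EIF1 (-1.32) were lowest. Of these calls, that of ABCE1 was lost without sorafenib polysome library 3 (0.85) or sorafenib culture 1 (0.94) or 2 (0.68). That of EIF2A (-1.10) was lost in 12 of the 18 fits that left out a library or culture (at -0.15 without sorafenib light library 3). That of PABPC1 (-1.17) was lost without sorafenib light library 3 (-0.70), sorafenib polysome library 3 (-1.0) or sorafenib culture 3 (-0.85). EIF4E2, higher on polysomes in vehicle cells (1.13), was lower in sorafenib cells (-0.58), a direction that turned with TMM within each fraction (0.21) and without a filter on low counts (0.08). Its call was lost in each of the 18 fits that left out a library or culture (-0.63 to -0.29), and the vehicle call of EIF2B4 in 15 of them (-0.69 to -0.45 over all 18). With library totals 21 members were higher and 4 lower (median of all genes 0.60), with TMM within each fraction 23 and 2, with upper quartile scaling 5 and 15, and without sorafenib light library 3 these were 14 and 4.

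The interaction test asks whether the sorafenib effect on polysomes differed from that in the light fraction, which is the same as asking whether the ratio of the pools changed. It was positive for 22 of 49 members (44.9%; 12.8% of all genes) and negative for 6 (12.2%; 10.7% of all genes), with a median of 0.74 against 0.02. The sign of all 28 was the same under each scaling tried, while library totals, which moved the median of all genes to -0.26, gave 19 positive and 11 negative members. The positive members with the largest values were EIF3A, EIF4B (3.02 ± 0.46), EEF1G (2.99 ± 0.43), EEF2 (2.66 ± 0.42) and PABPC1 (2.37 ± 0.41). The 6 negative members were EIF2B1, EIF4E2 (-1.71), EIF2S2 (-1.65), EIF1, EIF1AX and EIF5A (-1.29). Taken culture by culture, the log2 ratio of polysome to light was above all vehicle cultures in each sorafenib culture for 24 members and below them for 7. Of 12967 tested genes with a count in every library, 23.1% lay above in this way and 18.9% below. For EIF4B the ratio was -2, -2.47 and -2.26 in the vehicle cultures and 1.5, 1.42 and -0.07 in the sorafenib cultures, and for EIF4E2 it was 1.05, 1.21 and 1.11 against -0.6, -0.56 and -0.61. The SD of the mean ratios over the 49 members was 1.6 in vehicle and 0.96 in sorafenib cells, while over the 12967 genes it was 1.03 and 1.07. Over the TOP members alone it was 1.21 and 1.17, and over the other 33 it was 1.15 and 0.74, and the full range of the 49 was 5.85 and 5.19. Leaving out single libraries or cultures gave 13 to 26 positive and 3 to 7 negative members, and without both shallow sorafenib light libraries 15 were positive and 6 negative, with the sorafenib light arm again a single library. The call of ABCE1 was lost without vehicle polysome library 2 (1.03), sorafenib polysome library 3 (1.12), vehicle culture 2 (0.95) or sorafenib culture 1 (1.23). That of EIF2S2 was lost without vehicle culture 1 (-1.26) and that of GSPT1 without vehicle culture 2 (1.42).

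**Figure D4:**
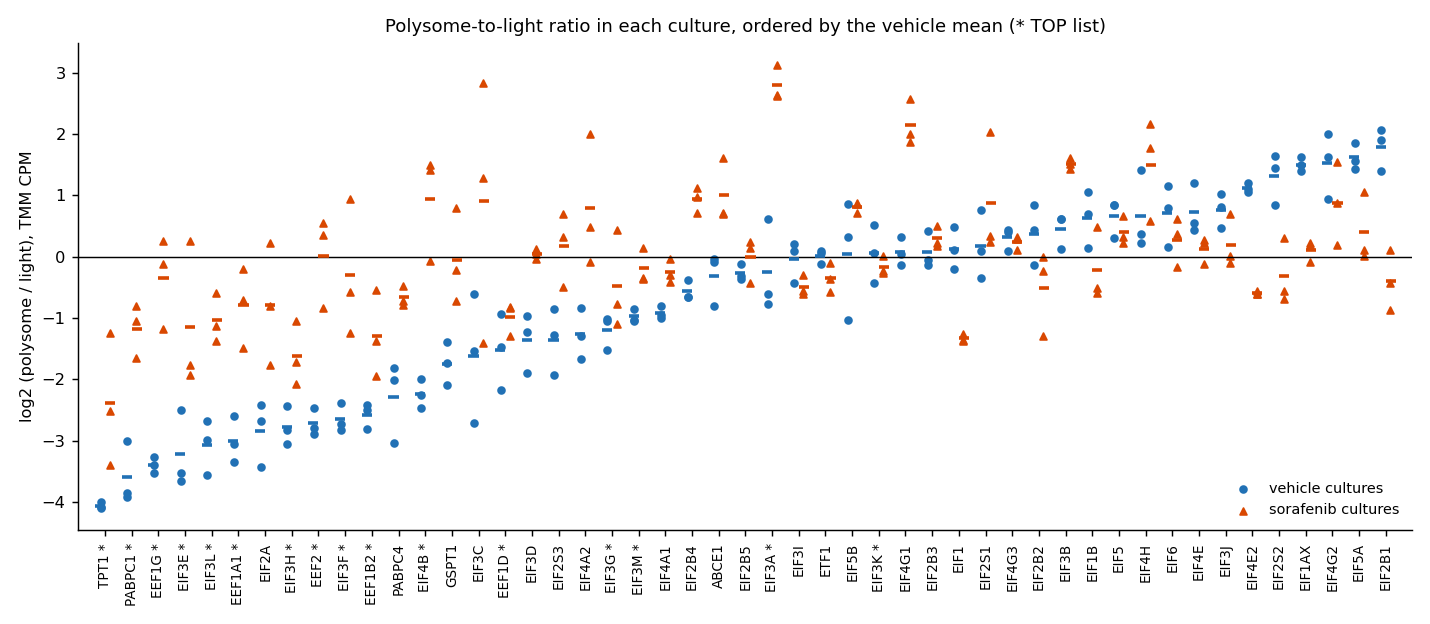
Log2 ratio of polysome to light TMM-scaled CPM (vertical axis) in each of the 3 vehicle cultures (circles) and 3 sorafenib cultures (triangles) for the 49 members, ordered on the horizontal axis by the vehicle mean; dashes are means and a star marks the TOP list. In 24 members all sorafenib cultures lie above all vehicle cultures and in 7 they lie below, against 23.1 and 18.9% of tested genes; the order uses the vehicle values, which also enter the change.

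Members on the TOP list made up 12 of the 22 positive interactions. In vehicle cells 14 of its 16 members were lower on polysomes (87.5%, against 17.8% of all genes) and 0 higher (18.3% of all genes), with a median of -2.67. EIF3A (-0.29) and EIF3K (0.02) were the 2 that did not pass. With sorafenib 12 of the 16 fell in the light fraction (75%, against 17.7% of all genes, median -1.29) and 0 rose (11.7% of all genes). On polysomes 6 rose (37.5%, median 0.47), against 20.9% of all genes and 39.4% of the 33 other members. None of the 16 fell there (28.8% of all genes). The interaction was positive in 12 (75%, against 12.8% of all genes, median 1.90) and negative in 0 (10.7% of all genes). The 33 other members had 10 higher (30.3%; 18.3% of all genes) and 8 lower (24.2%; 17.8%) on vehicle polysomes, with a median of 0.14. With sorafenib 13 rose (39.4%; 20.9% of all genes) and 5 fell (15.2%; 28.8%) on polysomes (median 0.24), and 8 rose (24.2%; 11.7%) and 3 fell (9.09%; 17.7%) in the light fraction (0.20). Their interaction was positive in 10 (30.3%; 12.8%) and negative in 6 (18.2%; 10.7%), with a median of 0.24. Whether these 2 sets differ was not tested, since the list was written with results known. Without both shallow sorafenib light libraries, 4 TOP members fell in the light fraction (median -0.74) and 8 had a positive interaction (1.51), from a fit with 1 sorafenib light library (number 3) whose spread comes from the other groups.

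The tract exactly at the annotated start, a rule chosen after the letters were seen, picked out a similar but not identical set. Of the 12 members with it, 11 were lower on polysomes in vehicle cells, the exception being EIF3K, and their median was -2.40. Of the 28 members with an entry and no tract at the start, 4 were lower (EEF1G, EIF2B4, EIF4A1 and GSPT1) and 9 higher, with a median of 0.25. Among the other tested genes with an entry, 27.2% of 721 with the tract and 14.3% of 9215 without it were lower. With sorafenib, 8 of the 12 fell in the light fraction (66.7%), against 23.6% of the other genes with the tract, and 10 of the 12 had a positive interaction (83.3%), against 16.4%. EIF2A, EIF2S3, EIF3D and EIF4A2 have the tract without being on the TOP list, and each was lower on vehicle polysomes (-2.79, -1.31, -1.42 and -1.23) and had a positive interaction (1.69, 1.43, 1.45 and 1.75). EEF1G is on the list, has no C at the annotated start, and had the third lowest ratio in vehicle cells. With the planned and looser rule, within 5 bases, the contrast was smaller. Of 19 members with a tract 11 were lower and 4 higher on vehicle polysomes, and of 21 without 4 were lower and 5 higher. With sorafenib 8 of the 19 fell in the light fraction (42.1%) and 2 rose, against 1 and 5 of the 21. The interaction was positive in 11 (57.9%) and negative in 2 of the 19, against 5 and 3 of the 21. Of all genes, with or without a tract, 17.8% were lower and 18.3% higher on vehicle polysomes. In the light fraction 17.7% of all genes fell and 11.7% rose with sorafenib, and the interaction was positive in 12.8% and negative in 10.7%.

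**Figure D5:**
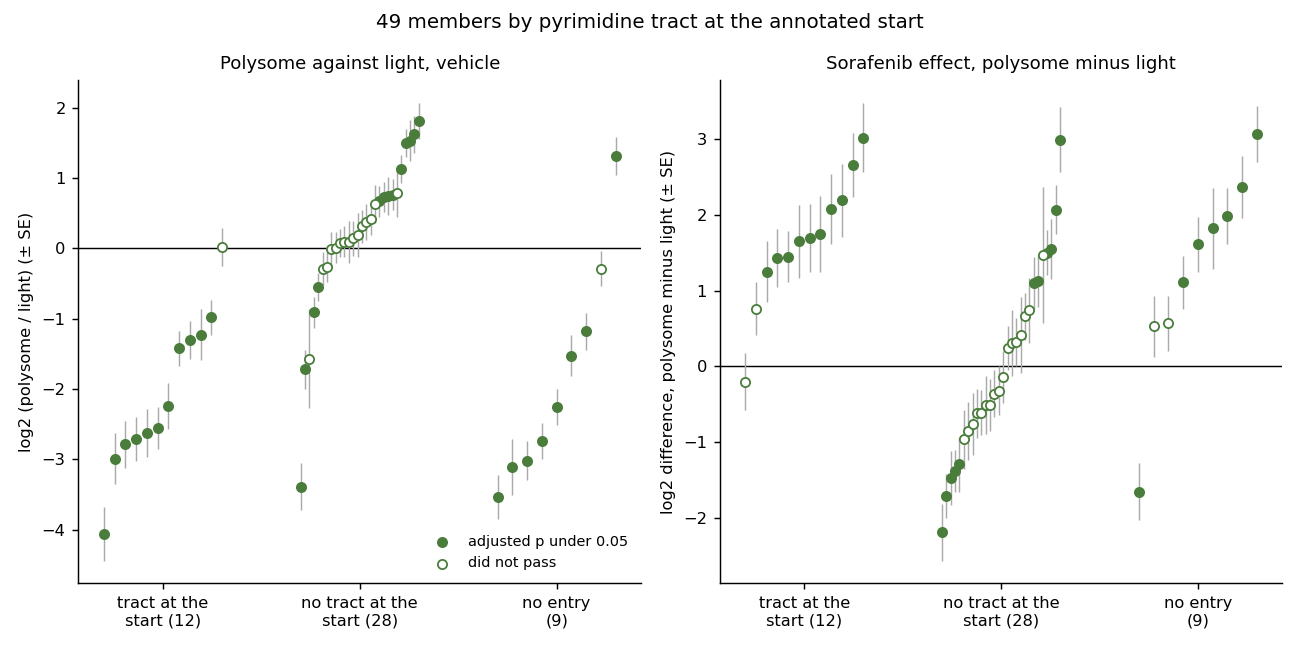
Log2 ratio of polysome to light in vehicle cells (left, vertical axis, ± SE) and the sorafenib effect on polysomes minus that in the light fraction (right, log2, ± SE) for the 49 members, split on the horizontal axis into 12 with a tract exactly at the annotated start, 28 with an entry and no tract there and 9 without an entry; filled points passed at an adjusted p under 0.05. In the left panel 11 of the 12 with a tract are filled and below 0, against 4 of the 28, by a rule chosen after the letters were seen. Of all genes 17.8% were lower on vehicle polysomes.

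The other genes of the pathway are given beside the shares of all genes. Of 51 tested genes for other cytosolic factors and regulators, 13 rose and 13 fell on polysomes (25.5% each; 20.9 and 28.8% of all genes). Counts in the light fraction were 5 that rose (9.8%; 11.7%) and 8 that fell (15.7%; 17.7%), and the interaction was positive in 10 (19.6%; 12.8%) and negative in 7 (13.7%; 10.7%), with a median of 0.25. ABCF1 (1.82) and ABCF3 (1.75), ATP-binding relatives of ABCE1, and PPP1R15A (2.48), the stress-induced subunit of the eIF2 phosphatase, rose on polysomes. EEF1E1, an auxiliary protein of the tRNA synthetase complex, fell (-1.67). Of 19 tested mitochondrial translation factors, 4 rose (21.1%) and 6 fell (31.6%) on polysomes, close to the 20.9 and 28.8% of all genes, and 4 rose and 4 fell (21.1% each; 11.7 and 17.7% of all genes) in the light fraction. GFM1, the mitochondrial elongation factor G (2.36), and LRPPRC, a mitochondrial mRNA-binding protein (1.98), rose on polysomes, while its partner SLIRP (-1.86) fell.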

How the data were processed

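The authors deposited 1 table of raw read counts per gene, with 1 column for each of the 12 libraries, described per the labels as polysome-gradient RNA from HepG2 cells. The submitters' processing notes name genome build GRCh38.p12, and the aligner, counter, annotation and strand setting were not given in the sources used here, so reads of overlapping, antisense or near-identical genes may be shared between rows.

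Counts were filtered with filterByExpr (14955 of 57353 rows left, 42398 untested) and scaled by TMM. They were fitted with edgeR's quasi-likelihood test (R 4.3.3, edgeR 4.0.16, limma 3.58.1) on 4 group means of 3 libraries, with 8 residual degrees of freedom and Benjamini-Hochberg adjustment over all tested genes at 0.05. The fit was checked on simulated data in which a small set of genes changed, in the sorafenib polysome group only. In the real polysome comparison 20.9% of all genes rose and 28.8% fell, so that check does not cover scaling with so many changes. Tracts were searched in RefSeq promoters of GRCh38.p14 with Python 3.11.15 and pandas 2.3.3, intervals came from scipy 1.17.1, and figures were drawn with matplotlib 3.10.9. The series' description speaks of triplicates and does not say whether they were separate cultures, so p-values measure the spread between these samples, which may be technical. Intervals cover counting error only.

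The members and lists were chosen with earlier results of these data known. Values in every library are given, per complex, for the 2 members with the largest polysome changes past the threshold and those with the largest light-fraction change and interaction past it, or the best-counted member where none passed; up to 4 genes by p are named from other lists.

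The titles give each replicate a number that both its fractions carry. Deviations from the group means correlated at 0.14, -0.07 and 0.33 between the 2 fractions of the vehicle cultures and at 0.05, 0.04 and 0.04 for the sorafenib cultures. Within a fraction, the deviations of libraries that share a number across treatments correlated at -0.20 to 0.02. The fractions of the same numbered culture gave values as low as -0.07. This measure therefore cannot decide whether shared numbers pair cultures across treatments.

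Alternatives were other scalings, other TMM reference libraries, other filters, DESeq2 1.42.0, fits of the compared groups only, replicate and culture blocks, left-out libraries and cultures, thinning to the smallest total, other denominators for shares and other tract rules. Chosen after seeing the data were the tract exactly at the start and the sum of EIF3C with EIF3CL; the fit without sorafenib light library 3 was among the planned ones and was singled out afterwards. With 3 libraries a group no outlier test of single libraries was made.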

Additional observations from a re-analysis of the deposited data

Results flagged for a closer look

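The sorafenib effects on polysomes and in the light fraction differed by edgeR's interaction test (Benjamini-Hochberg adjusted p under 0.05 over all genes) for 28 of the 49 members, and the values below are the effect on polysomes minus that in the light fraction, on the log2 scale. The difference was positive for 22 (44.9%, against 12.8% of all genes). Among subunits of eIF3 these were EIF3A (3.07), EIF3F (2.08), EIF3L (1.99), EIF3E (1.82), EIF3D (1.45), EIF3H (1.11) and EIF3B (1.10). Among elongation genes they were EEF1G (2.99), EEF2 (2.66), EEF1A1 (2.19), TPT1 (1.65) and EEF1B2 (1.25). The other positive members were EIF4B (3.02), PABPC1 (2.37), EIF4G1 (2.07), EIF4A2 (1.75), EIF2A (1.69), PABPC4 (1.61), GSPT1 (1.55), EIF2B4 (1.50), EIF2S3 (1.43) and ABCE1 (1.13). The difference was negative for 6 members (12.2%, against 10.7% of all genes), EIF2B1 (-2.19), EIF4E2 (-1.71), EIF2S2 (-1.65), EIF1 (-1.47), EIF1AX (-1.38) and EIF5A (-1.29). No explanation was tested for these differences.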

How the results depend on the processing

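Of the members that passed, all 24 on polysomes, 22 of 23 in the light fraction (not EIF3C), 31 of 32 in the vehicle fractions (not EIF2B4), 15 of 16 in the sorafenib fractions (not EIF4E2) and all 28 in the interaction kept their direction under the 40 or 41 alternatives run, and 14, 5, 20, 6 and 13 of them passed in all. The causes of the shifts below were not tested, and the shallow sorafenib light libraries limit what the light fraction can show.

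On polysomes the members that fell numbered 2 with TMM within each fraction and with vehicle polysome library 2 or 3 or sorafenib polysome library 1, 2 or 3 as the TMM reference, 1 without a low-count filter, 3 in the fit of the compared groups only and 3 without both shallow sorafenib light libraries, which leaves that arm 1 library. The median was 0.79 without the filter. In the light fraction 17 rose with library totals and 3 without the filter, 5 fell without both shallow libraries, and the median turned to 0.28 and 0.08 with library totals and without both shallow libraries.

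Between the fractions of vehicle cells, 25 members were higher and 14 lower with library totals (median 0.60), 22 were higher with TMM within each fraction (0.36) and 6 without the filter, and thinning gave a median of -0.63. EIF2B4 turned to 0.34 and 0.10 with the first 2 settings. In sorafenib cells 21, 23 and 14 were higher and 4, 2 and 2 lower with library totals, TMM within each fraction and no filter, with medians of 0.41, 0.61 and 0.42. EIF4E2 turned to 0.21 with TMM within each fraction and 0.08 without the filter. Negative interactions numbered 11 with library totals and 1 without the filter, where the median was 1.29.

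Leaving out single libraries or cultures gave 1 to 4 members that fell on polysomes (median 0.26 to 0.80), 4 to 12 that rose in the light fraction (median -0.26 to 0.02) and 6 to 11 higher on vehicle polysomes. In sorafenib cells it gave 4 to 14 higher and 3 to 11 lower (median -0.19 to 0.27), and in the interaction 13 to 26 positive and 3 to 7 negative. EIF3C in the light fraction ranged from -0.36 to 2.48 and was -0.30 without sorafenib light library 3, where the polysome median was 0.67; without sorafenib polysome library 1 the sorafenib fraction median was -0.17. Summed with EIF3CL, EIF3C was at 2.69 on polysomes and 1.60 in the light fraction.

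Shares of counts without mitochondrial and ribosomal protein genes were 10.8, 2.37, 5.43 and 3.77% for all members in vehicle light, vehicle polysome, sorafenib light and sorafenib polysome libraries, and 8.81, 1.29, 4.10 and 2.44% for elongation genes. The share of members with a tract was 67.5% within 15 bases of the start, 20% with at least 7 letters after the C and 30% exactly at the start.

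With the replicate block 19 members rose and 5 fell on polysomes (median 0.47), 6 and 15 in the light fraction (-0.19), 10 were higher and 22 lower on vehicle polysomes (-0.27), 7 and 9 on sorafenib polysomes (-0.13), and the interaction was positive in 22 and negative in 6 (0.77). With the culture as the replicate block the last 3 were 11 and 23, 9 and 9, and 21 and 6. Of the calls, 24 of 24, 21 of 23, 32 of 32, 15 of 16 and 28 of 28 held with the replicate block.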
